A study of Homo sapiens with 12 samples.

Results

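The effect of stable PIM1 overexpression was examined in prostate cancer cells that also carried a transiently transfected NFATC1 with its PIM1 target residues mutated. The comparison took 4 of the 12 samples in the series, 2 from PIM1 + MM cells and 2 from MM cells, and covered 25746 genes. All samples were PC-3 cells, an androgen-independent human prostate adenocarcinoma line. MM cells had been stably transfected with the empty pcDNA3.1 vector, and PIM1 + MM cells with a pcDNA3.1-based vector for Pim-1, and both had then received the multi-mutant NFATC1 expression vector with Fugene HD. WT and PIM1 + WT cells, which were used for one comparison, had received wild-type NFATC1 instead, and control and PIM1 cells carried only the stable vectors. Every stable line also carried the pCMV-Td-Tomato plasmid and was enriched with G418 as a transfected population, not from a single clone. The PIM1 difference is therefore a difference between separately selected cell populations. The time from transient transfection to lysis is given in more than one way in the study's text. Total RNA was labelled and read on two-colour whole-genome arrays with Cy5 for all 4 samples of the comparison, so both sides carried the same dye.

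PIM1 is a constitutively active serine/threonine kinase whose activity follows its amount, and its targets include cell cycle regulators, pro-apoptotic proteins and transcription factors. NFATC1 is a transcription factor held in the cytoplasm by phosphorylation and released by the phosphatase calcineurin, after which it binds DNA at GGAAAA-type sites, often with AP-1. PIM1 phosphorylates NFATC1, and the multi-mutant removes the residues concerned, so the comparison asked which genes differ with stable PIM1 when the transfected NFATC1 lacks these residues. The endogenous NFATC1 of the cells was not removed.

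The multi-mutant was built with 5 mutagenic primer pairs, for which the study lists 10 serine or threonine residues changed to alanine. In the pair for Ser151, Ser153 and Thr154 the printed sequences also differ at a further codon, ACC in the original and GCC in the mutant. That would read as threonine to alanine, a change the study does not list. The forward primers are shown because they define the protein that all 4 samples carried, each above the original sequence it replaced, with capitals on the bases that differ between the pair.
Ser245, mutant: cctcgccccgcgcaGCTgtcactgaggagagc
Ser245, original: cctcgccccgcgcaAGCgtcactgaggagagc
Ser269, mutant: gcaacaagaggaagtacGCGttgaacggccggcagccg
Ser269, original: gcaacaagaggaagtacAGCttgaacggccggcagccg
Ser151, Ser153 and Thr154, mutant: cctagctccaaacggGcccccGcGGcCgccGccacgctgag
Ser151, Ser153 and Thr154, original: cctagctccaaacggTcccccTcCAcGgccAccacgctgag
Ser256 and Ser257, mutant: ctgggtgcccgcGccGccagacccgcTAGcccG
Ser256 and Ser257, original: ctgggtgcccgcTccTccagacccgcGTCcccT
Ser335, Thr338 and Thr339, mutant: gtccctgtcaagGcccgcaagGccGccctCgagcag
Ser335, Thr338 and Thr339, original: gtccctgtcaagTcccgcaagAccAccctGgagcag

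Each slide held 1 sample of each group, and the slides stand for the replicates. The median raw intensity was 318 and 204 in MM cells and 292 and 192 in PIM1 + MM cells (replicates 1 and 2), between 58.5% and 66.5% of spots were well above background, and no spot was saturated. The 2 replicates correlated across genes at 0.9976 in MM and 0.9955 in PIM1 + MM cells. Nothing in the labels says that replicates were separate cultures, so the p-values measure only the spread between these samples. One sample stood apart in position on the array. In PIM1 + MM replicate 2, the Cy5 signal was low in rows 1 to 33 of 532. The 1075 genes with all spots in these rows (4.18% of genes) had a median difference between PIM1 + MM and MM of 0.00 on slide 1 and -0.18 on slide 2, against 0.00 and 0.01 for the other genes. Of the 98 genes called lower, 23 (23.5%) lay in these rows, with a median of -0.72 on slide 1 and -1.67 on slide 2, and of the 128 genes called higher, 3 did. The genes named below lie outside these rows unless stated.

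Transcripts that define PC-3 cells were present, with the epithelial KRT8, KRT18, KRT19 and EPCAM and the mesenchymal filament gene VIM well above background in all 4 samples and CDH1 in 3. Among markers of other cells, the endothelial PECAM1 and KDR differed most. PECAM1 differed by 0.82 and KDR, which lies in rows 1 to 33, by 0.88 on the log2 scale. CDH5, VWF, TEK, CLDN5 and ESAM differed by 0.08 (VWF) to 0.30 (CDH5) and did not pass the test. TEK and CLDN5 were well above background in no sample. The summed linear signal of the 7 endothelial markers was 761 to 770 in MM and 1025 to 1042 in PIM1 + MM cells. The part of these differences in the other results was not tested. The summed signals of the leukocyte markers (2836 to 3009 against 3103 to 3259), fibroblast markers (1172 to 1199 against 1105 to 1205) and neuroendocrine markers (1124 to 1126 against 1171 to 1392) moved less, and CD3E and MS4A1 were well above background in no sample. In bulk samples such as these, fewer cells with a transcript and less of it per cell cannot be told apart.

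Between PIM1 + MM and MM cells, 226 of 25746 genes differed by at least 2-fold (0.878%). Of these, 128 were higher (0.497%) and 98 were lower (0.381%) in PIM1 + MM cells. A gene was called here at an adjusted p below 0.05 (limma, Benjamini-Hochberg) with a log2 difference of at least 1 in either direction. The largest increases were in the secreted trefoil factors TFF2 and TFF1 and the glutathione-degrading enzyme CHAC1, and the largest decreases were in the matrix link protein gene HAPLN2 and the imprinted neighbours IGF2 and H19. At the adjusted p alone, 4989 genes differed (19.4%), 2575 higher (10.0%) and 2414 lower (9.38%), so most differences were smaller than 2-fold. The median over all genes was 0.00. Without PIM1 + MM replicate 2 the fit called 224 genes, of which 86 were lower, and without PIM1 + MM replicate 1 it called 366, of which 229 were lower.

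**Figure D1:**
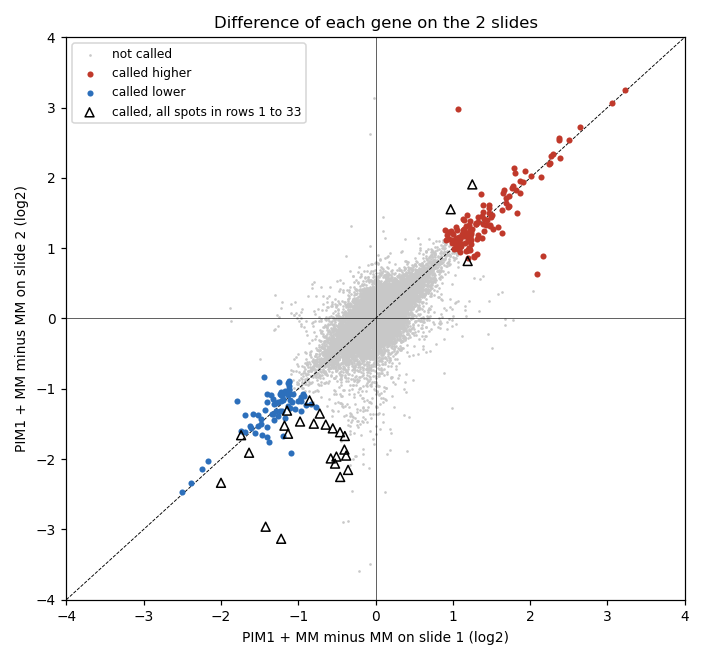
Log2 difference between PIM1 + MM and MM cells on slide 1 (x axis) and slide 2 (y axis), 1 point per gene. Called genes whose spots all lie in rows 1 to 33 are marked. The other called genes lie mostly along the diagonal. Marked genes called lower had a median of -0.72 on slide 1 and -1.67 on slide 2.

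The genes that had been introduced were read first. PIM1 itself had a single probe, with log2 signals of 10.14 and 10.12 in MM and 10.21 and 10.36 in PIM1 + MM cells. The PIM1 difference of 0.15 (SE 0.10, adjusted p = 0.339) did not pass the test. Where this probe lies relative to the PIM1 sequence in the vector is not given in the sources used here. These values therefore do not check the overexpression, and the groups are those given by the labels. The study itself reports checking PIM1 and NFATC1 overexpression in the microarray samples by real-time qPCR. The related kinases PIM2 and PIM3 differed by -0.01 and 0.05.

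The 2 probes of NFATC1 went opposite ways. Probe A_24_P258846 read 11.37 and 11.22 in MM and 11.98 and 11.92 in PIM1 + MM cells, a rise of 0.66 (SE 0.12, adjusted p over probes 0.0039, limma). The same probe read 7.72 to 8.01 in the 4 samples with wild-type NFATC1 and 6.87 in both control samples, so it was high where the multi-mutant had been transfected. The part of its rise with stable PIM1 in the other results was not tested. Probe A_23_P300150 read 8.39 and 8.40 in MM but 7.31 and 7.37 in PIM1 + MM cells, a fall of 1.05 (log2 difference -1.05, SE 0.06, adjusted p over probes 8.04e-06, limma). With stable PIM1 under wild-type NFATC1 that probe changed by -1.09. The gene-level median of the pair, -0.20, therefore described neither probe. ITGA5, the integrin alpha5 subunit of the fibronectin receptor, rose from 9.21 and 9.15 to 9.49 and 9.57, by 0.35 (SE 0.09, adjusted p = 0.0212), below the 2-fold limit. The calcineurin regulator RCAN1, an NFAT target, differed by 0.16 (adjusted p = 0.318). Of the reference genes, ACTB, GAPDH and TBP differed by 0.12, 0.14 and -0.24, and none passed the test, while ACTB read -0.032 with its brighter probe alone.

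Genes for secreted and mucosal proteins led the increases. TFF2, a trefoil peptide of mucus-secreting epithelia, read 9.99 and 9.93 in MM and 13.21 and 13.17 in PIM1 + MM cells. Its signal was 9.41-fold brighter with PIM1 (log2 difference 3.23, SE 0.05, adjusted p = 7.38e-09). TFF1, its neighbour and an estrogen-regulated peptide of the same family, read 9.70 and 9.74 in MM and 12.76 and 12.80 in PIM1 + MM cells (8.35-fold, adjusted p = 1.2e-08). In both trefoil genes the groups were separated by about 3 log2 units with replicates within 0.1 of each other. S100P, a calcium-binding protein found in many epithelial tumours, read 11.90 and 11.95 against 13.90 and 13.97 (4.04-fold, adjusted p = 4.53e-07). AGR2, an endoplasmic reticulum protein needed for mucin folding, read 11.53 and 11.24 against 12.71 and 12.71 (log2 difference 1.32, adjusted p = 0.000102). The gene groups here and below were lists written by hand with earlier results of these data known. Their counts therefore describe the listed genes and are no test of a group. TFF2, TFF1, S100P and AGR2 were the called members among 22 tested genes for trefoil factors and secreted epithelial proteins. Of all genes, 0.497% were called higher, and none of the 22 was called lower. At the adjusted p, 9 were higher and 1 lower (10.0% and 9.38% of all genes). The median of that group was 0.19, and TFF3, the remaining trefoil gene, differed by 0.51 (adjusted p = 0.00651). FAM3D, a secreted protein of the gut, and PRSS8, the membrane-anchored serine protease prostasin, were both weak in MM cells (6.28 to 6.87) and rose by 2.02 and 1.97.

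The other large increases included VAMP8, EHD2 and PDE2A. VAMP8, a SNARE protein of endosome and granule fusion, read 10.08 and 10.11 in MM and 12.46 and 12.67 in PIM1 + MM cells (5.54-fold, adjusted p = 4.67e-07). EHD2, an ATPase at the neck of caveolae, read 7.82 and 7.75 against 10.09 and 10.06 (4.90-fold, adjusted p = 1.01e-05). It was the called member among 46 genes of endocytic recycling, against 0.497% of all genes called higher. Of these 46, 7 were higher and 8 lower at the adjusted p (10.0% and 9.38% of all genes), with a median of -0.02. PDE2A, a phosphodiesterase that degrades cyclic nucleotides, read 7.97 and 8.07 against 10.36 and 10.36 (5.05-fold, adjusted p = 4.67e-07). These 3 genes rose from weak or moderate signals to well measured ones in both replicates. The guidance cue SEMA5A rose by 2.32, the Ras-related GTPase RASD1 by 2.23, the lysosomal galactocerebrosidase GALC by 2.22, the muscarinic receptor CHRM3 by 1.94 and PLEKHB1, a pleckstrin homology protein, by 1.93. Their adjusted p-values lay between 4.67e-07 (RASD1) and 4.9e-06 (PLEKHB1), and each gene rose on both slides. ZNF334, a zinc finger gene, was the exception to the close replicates. It read 6.18 and 6.64 in MM cells, where it was not well above background, and 7.25 and 9.62 in PIM1 + MM cells, which gave an increase of at least 3.89-fold with an SE of 0.57 (adjusted p = 0.0358). Without PIM1 + MM replicate 2 the ZNF334 difference was 0.83, and without either MM sample it missed the test.

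The largest decreases were those of HAPLN2, IGF2 and H19. HAPLN2, which links hyaluronan to proteoglycans, read 9.71 and 9.84 in MM and 7.21 and 7.37 in PIM1 + MM cells (5.60-fold lower, adjusted p = 2.63e-06). IGF2, the fetal growth factor, read 10.67 and 10.72 against 8.28 and 8.38 (5.15-fold lower, adjusted p = 1.27e-07). Its probe A_23_P150609 changed by -3.51 and its weaker probe A_23_P421379 by -1.23. The non-coding RNA H19, expressed from the other parental chromosome at the same imprinted locus, read 10.45 and 10.43 against 8.21 and 8.29 (4.58-fold lower, adjusted p = 5.28e-06). Both transcripts of the locus were thus lower in each PIM1 + MM sample. COL2A1, the fibrillar collagen of cartilage, read 8.55 and 8.63 against 7.14 and 6.94 (2.93-fold lower, adjusted p = 1.25e-05).

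Cancer-testis antigen genes of the X chromosome made up 4 of the 15 largest decreases. CSAG4 read 12.26 and 12.29 in MM and 10.65 and 10.73 in PIM1 + MM cells (3.00-fold lower, adjusted p = 3.8e-06), and CSAG1 changed by -1.59 (SE 0.22, adjusted p = 0.00117). MAGEA2B read 10.18 and 10.23 against 8.72 and 8.58 (2.95-fold lower, adjusted p = 2.71e-06), and MAGEA1 changed by -1.53 (adjusted p = 1.89e-05). MAGEA6 fell by 1.49 and MAGEA12, which lies in rows 1 to 33, by 1.70, with -1.74 on slide 1. Members of the MAGEA and CSAG families are near-identical in sequence, so which copies contributed to each probe is uncertain.

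The rest of the largest decreases included S100A9, TESC and DSP. S100A9, a subunit of calprotectin, read 9.85 and 9.81 against 8.17 and 8.19 (3.15-fold lower, adjusted p = 4.04e-05). TESC, a calcium-binding regulator of sodium/proton exchange, read 9.76 and 9.75 against 8.03 and 8.14 (3.18-fold lower, adjusted p = 1.34e-06). DSP, the desmosomal plaque protein desmoplakin, read 9.70 and 9.83 against 8.32 and 8.07 (2.96-fold lower, adjusted p = 1.16e-05). In these 3 genes every PIM1 + MM sample was lower than both MM samples by more than 1.3. BHLHE41, a circadian transcriptional repressor, fell by 1.58, LY6E, a GPI-anchored surface protein, fell by 1.52, and NUDT11, a diphosphoinositol polyphosphate phosphohydrolase, was 2.83-fold lower. The probe assigned to 18S ribosomal RNA, RNA18SN5, read 13.11 and 13.19 against 10.94 and 11.16 (log2 difference -2.10, adjusted p = 2.17e-06), and that for 28S ribosomal RNA, RNA28SN5, changed by -0.94. Ribosomal RNA has many near-identical copies, and its signal depends on the labelling of abundant structural RNA.

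Interferon-stimulated genes were the gene group with the most called members. Of 55 tested, 17 were called higher and none lower, against 0.497% higher among all genes. At the adjusted p alone 35 were higher and 0 lower, against 10.0% and 9.38%. These counts hold for the genes listed, and LY6E, which was called lower (-1.52), was not among them. The group's median was 0.54, with 0.67 on slide 1 and 0.51 on slide 2, against 0.00 over all genes. BST2, the antiviral tether tetherin, read 8.61 and 8.70 in MM and 10.30 and 10.42 in PIM1 + MM cells (3.25-fold, adjusted p = 1.62e-06). IFI44L read 7.56 and 7.62 against 9.39 and 9.12 (3.17-fold, adjusted p = 5.28e-06). MX1, a dynamin-like antiviral GTPase, read 9.66 and 9.77 against 11.31 and 11.31 (3.02-fold, adjusted p = 3.13e-06). OAS1, which makes the activator of RNase L, read 7.71 and 7.86 against 9.20 and 9.31 (2.77-fold, adjusted p = 4.9e-06). In all 4 genes both PIM1 + MM samples were above both MM samples. Other called members included IFI6, RTP4, ISG20, MX2, IFITM1, IFI44, OASL, LGALS3BP, RSAD2, LAMP3, OAS2 and the RNA sensor IFIH1, with log2 differences from 1.44 for IFI6 down to 1.11 for IFIH1. Of the members that did not pass, IFI16 had the lowest value, -0.56 (adjusted p = 0.0974). Without PIM1 + MM replicate 2 the count of called members was 18. With each channel centred on its median in place of quantile normalization it was 5, while the median stayed at 0.51. Among 22 genes of MHC class I antigen presentation, none was called, and 8 were higher and 0 lower at the adjusted p.

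Promoter sequences were read for the called genes from RefSeq (GRCh38.p14), from 250 bases before to 50 after the gene start. The interferon-stimulated response element has a core of GAAA followed, after any 2 bases, by GAAA again, searched on both strands. It occurred in 455 of 14638 promoters of tested genes (3.11%). It was in 10 of the 12 called interferon-stimulated genes with a promoter entry (83.3%), in 18 of 31 that were not called (58.1%), in 1 of 74 other genes called higher (1.35%) and in 1 of 55 called lower (1.82%). The element thus marked the group whether or not its members were called. The promoters of the 3 leading members show it, with the matched bases in capitals. BST2 is at chr19:17405581-17405880 on the minus strand, IFI44L at chr1:78620198-78620497 and MX1 at chr21:41420308-41420607, both on the plus strand. In BST2 and IFI44L there were 2 matches, overlapping in BST2, and in MX1 there was 1, which began 11 bases after the start.
BST2: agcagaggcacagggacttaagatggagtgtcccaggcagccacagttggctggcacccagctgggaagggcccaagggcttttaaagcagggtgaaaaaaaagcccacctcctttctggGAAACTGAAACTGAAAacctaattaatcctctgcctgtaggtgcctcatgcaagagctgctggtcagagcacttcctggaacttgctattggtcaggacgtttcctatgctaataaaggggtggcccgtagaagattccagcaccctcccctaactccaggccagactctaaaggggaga
IFI44L: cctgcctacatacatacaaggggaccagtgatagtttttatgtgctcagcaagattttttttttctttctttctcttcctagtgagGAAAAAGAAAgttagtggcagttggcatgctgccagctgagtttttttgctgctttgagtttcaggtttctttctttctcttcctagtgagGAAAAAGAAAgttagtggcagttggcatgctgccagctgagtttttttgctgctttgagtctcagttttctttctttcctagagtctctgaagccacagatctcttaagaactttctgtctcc
MX1: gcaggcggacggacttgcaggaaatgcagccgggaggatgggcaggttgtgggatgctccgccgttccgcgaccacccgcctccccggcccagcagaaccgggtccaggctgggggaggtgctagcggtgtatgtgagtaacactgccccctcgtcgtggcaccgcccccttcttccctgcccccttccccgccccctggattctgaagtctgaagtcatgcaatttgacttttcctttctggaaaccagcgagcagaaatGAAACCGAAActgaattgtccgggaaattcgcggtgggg

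Genes of the integrated stress response, which ATF4 induces when translation initiation is limited, were mostly higher. Of 38 tested, 2 were called higher and none lower, 20 were higher and 3 lower at the adjusted p (10.0% and 9.38% of all genes), and the median was 0.38. CHAC1 read 9.85 and 9.82 in MM and 12.35 and 12.36 in PIM1 + MM cells (5.74-fold, adjusted p = 2.49e-08), with its 2 probes at 2.27 and 2.77. GDF15, a secreted stress cytokine of the TGF-beta family, had a mean of 14.49 ± 0.022 in MM and 16.23 ± 0.087 in PIM1 + MM cells (SD, n = 2, 3.35-fold, adjusted p = 5.28e-06). Smaller rises that passed the test were those of ATF4 (0.67, adjusted p = 0.00104), the cystathionase CTH (0.94), the cystine transporter SLC7A11 (0.94), the serine synthesis enzyme PSAT1 (0.91) and DDIT3 (0.54). JDP2, a repressor that binds the same class of sites, changed by -0.83 (adjusted p = 7.39e-05). The 25 tested chaperones and other genes of the unfolded protein response had a median of 0.09, with 7 higher and 2 lower at the adjusted p and none called. The core TGATGNAA of the composite C/EBP-ATF site was in 9 of the 31 stress response promoters (29.0%) against 2.38% of all promoters. In CHAC1, at chr15:40953221-40953520 on the plus strand, it lay on the opposite strand (capitals).
CHAC1: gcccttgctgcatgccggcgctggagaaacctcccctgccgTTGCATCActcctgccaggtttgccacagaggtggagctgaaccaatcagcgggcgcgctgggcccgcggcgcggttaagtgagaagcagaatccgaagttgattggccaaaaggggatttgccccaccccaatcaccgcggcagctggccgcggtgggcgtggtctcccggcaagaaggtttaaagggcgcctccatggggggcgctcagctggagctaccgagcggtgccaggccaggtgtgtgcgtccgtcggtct

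Cell cycle genes were lower by small amounts in large numbers. Of 60 tested genes of DNA replication and S phase, 37 were lower and 0 higher at the adjusted p (9.38% and 10.0% of all genes), 58 had a difference below 0, and the median was -0.36 (-0.40 on slide 1 and -0.31 on slide 2). PCNA, the sliding clamp of the polymerases, read 12.54 and 12.55 in MM and 11.76 and 11.74 in PIM1 + MM cells (log2 difference -0.79, adjusted p = 1.96e-05). CDC45, part of the replicative helicase, changed by -0.75. Of 60 mitotic genes, 39 were lower and 0 higher, with a median of -0.34. AURKA, the spindle pole kinase, read 12.99 and 13.07 against 12.12 and 12.21 (-0.87, adjusted p = 3.06e-05), and TOP2A changed by -0.64. Only GINS1 (-1.15) and GINS4 (-1.01), both subunits of the helicase complex GINS, were called lower, at the edge of the rule. GINS1 lies in rows 1 to 33 and differed by -0.70 without PIM1 + MM replicate 2 and had an adjusted p of 0.0549 without MM replicate 1 (limma), and the call for GINS4 was lost without MM replicate 2 (-0.93) or PIM1 + MM replicate 1. Of 50 genes of ribosome biogenesis and MYC targets, 10 were lower and 0 higher, with a median of -0.16. Replication-dependent histones did not go with the S phase genes, since 19 of 65 were higher and 3 lower, with a median of 0.14, and H1-2 was higher by 0.73 (adjusted p = 0.00319).

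Genes tied directly to NFAT and to PIM kinases held few members that moved by 2-fold. Of 22 NFAT factors, calcineurin subunits and calcipressins, 1 was called lower (0.381% of all genes), and 0 were higher and 7 lower at the adjusted p, against 10.0% higher and 9.38% lower among all genes, with a median of -0.21. The called member was FKBP1A, the FK506-binding protein, at -1.06 (adjusted p = 7.39e-05), but its 5 probes differed in sign and the brightest changed by -0.16. Of 19 tested NFAT target genes, none was called and 1 was lower at the adjusted p, with a median of 0.07. The 34 PIM kinases and PIM substrates had a median of -0.11, with 9 lower and 0 higher at the adjusted p (9.38% and 10.0% of all genes), and the transcription factor MYB was called lower, from 8.73 and 8.88 to 7.73 and 7.71 (2.12-fold, adjusted p = 0.000116). The NFAT-type core GGAAAA, whose matches can overlap those of the interferon element, was in 14 of 86 promoters of genes called higher (16.3%) and 7 of 55 of genes called lower (12.7%), against 21.5% of all promoters.

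For adhesion and matrix genes the shares over all genes were 10.0% higher and 9.38% lower at the adjusted p, and 0.497% and 0.381% among called genes. Of 25 tested integrin subunits none was called, with 6 higher and 2 lower at the adjusted p and a median of 0.14. Of 80 focal adhesion and actin genes, 21 were lower and 6 higher at the adjusted p, with a median of -0.10. TNS4, a short tensin of epithelial adhesions, read 7.29 and 7.21 in MM and 8.72 and 8.53 in PIM1 + MM cells (2.60-fold, adjusted p = 7.09e-06), while TNS1 was called lower (-1.43) from 3 probes that differed in sign. In the extracellular matrix group of 46, 16 were higher and 5 lower, with a median of 0.09. The proteoglycan SPOCK1 rose by 1.65 (adjusted p = 3.13e-06) and tenascin TNXB by 1.40, whose median over 5 probes was 0.17 once spots in rows 1 to 33 were left out of PIM1 + MM replicate 2. The fibulin EFEMP1 fell by 1.77 and lies in rows 1 to 33, with -1.64 on slide 1. Of 45 invasion proteases and inhibitors, ADAMTS1 (1.52) and the serpin SERPINB5 (1.30) were called higher and none lower, with 13 higher and 6 lower at the adjusted p. Epithelial genes divided, since PRSS8 was called higher, while DSP and the basement membrane anchor LAD1 (-1.07) were among those called lower of 40, with a median of 0.06. Of 37 mesenchymal genes, S100A4 (1.02) and the ectonucleotidase NT5E (1.01) were called higher, with a median of 0.04. The call for LAD1 was lost without any 1 of the 4 samples, and those for S100A4 and NT5E were lost without MM replicate 2, and without PIM1 + MM replicate 1 for S100A4 and replicate 2 for NT5E.

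The remaining groups held few called members, against 0.497% of all genes called higher and 0.381% called lower. IL33 rose by 1.12 and IL11 fell by 1.11 among 39 inflammatory cytokines, of which 12 were higher and 5 lower at the adjusted p (10.0% and 9.38% of all genes). AKR1C1 (1.09) and AKR1C3 (1.16), ketosteroid reductases of near-identical sequence, were called higher among 36 oxidative stress genes, of which 8 were higher and 10 lower. The activin subunit INHBA rose by 1.09, and ID3, an inhibitor of DNA binding, fell by 1.07 among 43 WNT and TGF-beta targets, of which 6 were higher and 10 lower. The pro-apoptotic BAK1 was called higher at 1.04 and read just under 1 without PIM1 + MM replicate 2. The lysosomal protease gene CTSZ fell by 1.29. No member was called among AP-1 and early response factors, glycolysis and hypoxia, cholesterol biosynthesis, Notch or growth factor genes, with medians between -0.05 and 0.16. Among called genes with several probes, 19 of 21 had all probes on the same side, the others being TNS1 and FKBP1A.

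Called genes also lay next to each other on the chromosomes. Placed by the order of RefSeq genes, 195 called genes fell among 18809, and 12 pairs of adjacent genes were both called in the same direction. TFF2 and TFF1 were neighbours on chromosome 21, as were MX2 and MX1, and H19 and IGF2 were on chromosome 11. IFI44L and IFI44, FAM107A and FAM3D, SEMA5A and SNHG18, AKR1C1 and AKR1C3, and GALC and GPR65 were the other pairs called higher. On the X chromosome MAGEA2B, CSAG1, MAGEA12, CSAG4 and MAGEA6 formed a run of 5 called lower.

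Smaller shifts ran over longer stretches. Among 18257 windows of 25 consecutive genes, the lowest median was -0.53 on chromosome 22, from KLHL22 to PPIL2, with -0.49 and -0.52 on the 2 slides, 23 of 25 genes below 0 and 15 lower at the adjusted p. The highest was 0.36 on chromosome 3, from APEH to HYAL2, with 20 of 25 genes above 0 and 13 higher at the adjusted p. The median over all placed genes was 0.00. Joining windows beyond 0.25 in size, a limit chosen after the values were seen, gave 28 stretches on 13 chromosomes, in part overlapping, of which the 3 with the most genes are described. They were 91 genes on chromosome 22 from ATP6V1E1 to RGL4 with a median of -0.39 and 79 below 0. The others were 85 genes on chromosome 3 from FBXW12 to IQCF6 with a median of 0.31, and 85 on chromosome 12 from IGF1 to TMEM116 with a median of -0.31. CRKL, an adaptor protein of tyrosine kinase signalling in the chromosome 22 stretch, read 10.38 and 10.25 in MM and 9.43 and 9.26 in PIM1 + MM cells (-0.97, adjusted p = 0.000361), and CDC45 lies there too. In PIM1 + WT against WT cells the medians of the 3 stretches were -0.21, 0.33 and -0.33, and in PIM1 against control cells -0.28, 0.30 and -0.12, the latter across dyes.

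**Figure D2:**
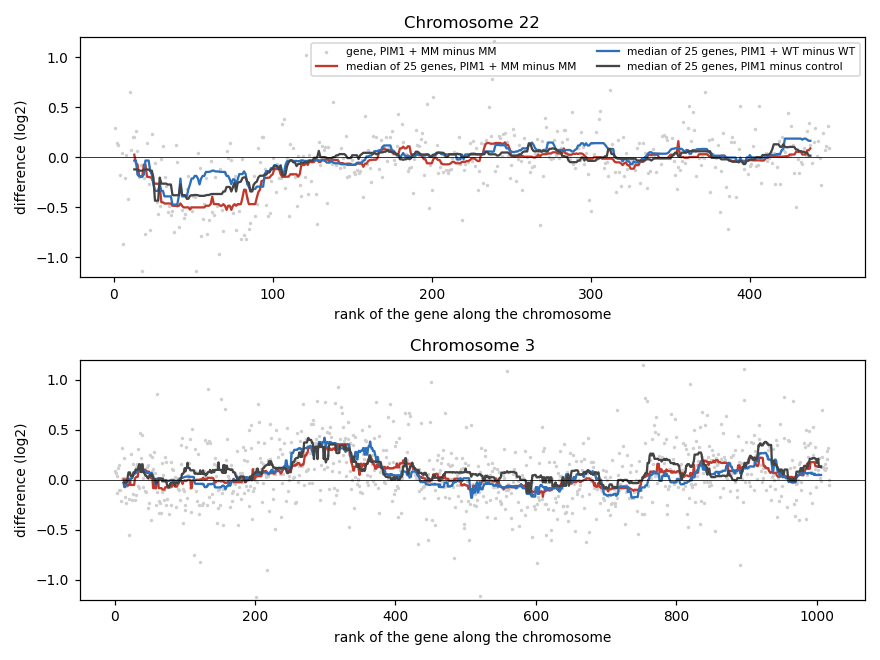
Log2 difference between PIM1 + MM and MM cells of each gene (y axis) against gene order (x axis) on chromosomes 22 and 3. Lines are running medians over 25 consecutive genes for PIM1 + MM minus MM, PIM1 + WT minus WT and PIM1 minus control. In the lowest window, on chromosome 22, these medians were -0.53, -0.19 and -0.30. In the highest, on chromosome 3, they were 0.36, 0.37 and 0.34.

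Whether the PIM1 difference depended on the form of NFATC1 was tested as the difference between PIM1 + MM minus MM and PIM1 + WT minus WT. The latter used other samples, hybridised in Cy3 to the same arrays, so the NFATC1 form and the dye cannot be told apart in that difference. The signal of NFATC1 probe A_24_P258846 went with the form too. It averaged 11.29 in MM and 11.95 in PIM1 + MM cells, but 7.77 in WT and 7.97 in PIM1 + WT cells. The form and this signal cannot be told apart either. Between PIM1 + WT and WT cells, 330 genes were called (1.28%). All 226 genes called under the multi-mutant had the same sign under wild-type NFATC1, and 165 of them were called there in the same direction. These were 73.0% of the calls under the multi-mutant and 165 of the 330 under wild type. Both differences shared arrays and compared the same stable populations, so they are not independent of each other. TFF2, TFF1 and CHAC1 rose by 2.96, 2.85 and 2.95 under wild type, and IGF2 and HAPLN2 changed by -2.22 and -2.95.

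The difference itself passed the rule for 13 genes (0.0505%), 4 higher (0.0155%) and 9 lower (0.0350%), and none of them was among the 226. The histone gene H3C15 read 11.93 and 11.86 in MM and 11.93 and 12.01 in PIM1 + MM cells, against 12.95 and 12.90 in WT and 11.58 and 11.63 in PIM1 + WT cells (difference of effects 1.39, adjusted p = 0.00239). HIRA, a histone chaperone gene of chromosome 22, changed by -0.55 under the multi-mutant and -1.90 under wild type (difference 1.35, adjusted p = 0.00652). RAB11B, a GTPase of the recycling endosome, changed by -0.31 against 1.13 (difference -1.44, adjusted p = 0.00495), and ZYX, the focal adhesion protein zyxin, by 0.41 against 1.48 (difference -1.07, adjusted p = 0.00239). In each of these genes the larger PIM1 change was the one in the Cy3 samples with wild-type NFATC1. Among the 13, the reverse held for H1-10 (-0.63 under the multi-mutant and 0.41 under wild type). It also held for probe A_33_P3241184, which has no symbol (0.61 and -0.51). At the adjusted p alone the difference passed for 561 genes (2.18%), 124 higher (0.482%) and 437 lower (1.70%). ITGA5 was one, with a rise of 0.35 under the multi-mutant and 0.97 under wild type (difference -0.62, adjusted p = 0.0402). Of the 226 called genes, 14 passed it, among them S100P (2.02 against 1.33, adjusted p = 0.00989) and LY6E (-1.52 against -0.91, adjusted p = 0.00867). The count of 13 became 161 without PIM1 + MM replicate 1, 31 without PIM1 + WT replicate 2, 21 without WT replicate 2, and 7 without either PIM1 + WT replicate 1 or WT replicate 1. With each channel centred on its median it was 0 (limma), with 244 genes at an unadjusted p below 0.05.

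**Figure D3:**
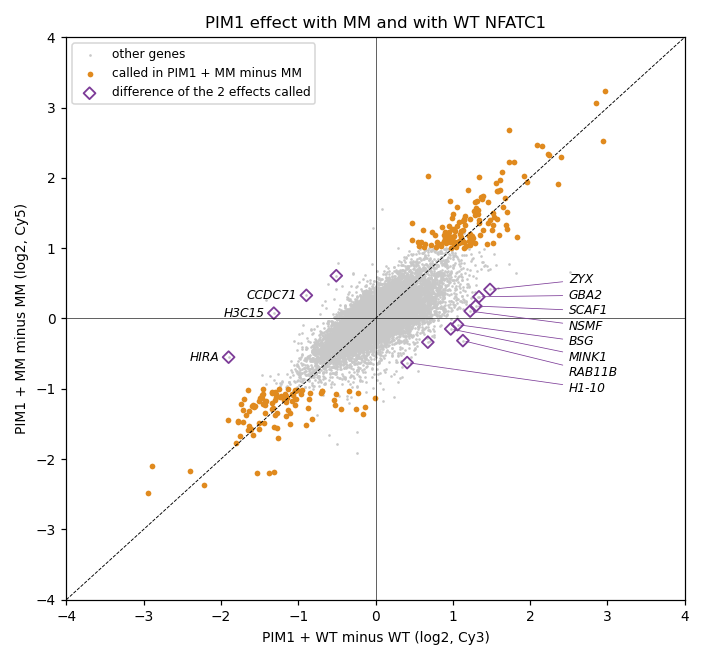
Log2 difference with stable PIM1 under wild-type NFATC1 (x axis, PIM1 + WT minus WT, Cy3) and under the multi-mutant (y axis, PIM1 + MM minus MM, Cy5), 1 point per gene. TFF2 lies at 2.96 and 3.23, and the genes whose difference of effects passed the rule, such as HIRA at -1.90 and -0.55, lie off the diagonal.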

How the data were processed

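RNA from 12 PC-3 samples in 6 groups of 2 was read on 6 two-colour Agilent arrays, scanned with Feature Extraction 11.0.1.1. The authors deposited raw median intensity values per spot and dye, and background-subtracted, dye-normalized processed intensity values. A further table deposited by the authors holds log2 values per spot, which differed by at most 0.0844 from the quantile-normalized log2 median signal. Each sample was read from the dye in its label. Outlier spots were left out, spots of a probe were averaged, and probes above the 90th percentile of 153 negative control spots in at least 2 of 12 channels were kept (31484 of 34127), with no background subtraction. The log2 values were quantile normalized over the 12 channels, and the median was taken per symbol, giving 25746 genes, of which 18857 had a symbol matched to RefSeq and 9 had a missing value in the 4 samples compared.

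Group means of all 12 samples were fitted with limma 3.58.1 (R 4.3.3), with two-sided p-values adjusted by Benjamini-Hochberg. A gene was called at an adjusted p below 0.05 and an absolute log2 difference of at least 1. The genes named are PIM1, NFATC1, ITGA5, RCAN1 and the reference genes ACTB, GAPDH and TBP, the 15 largest called increases and decreases outside rows 1 to 33 with the same sign on both slides and well above background in at least 1 group, up to 4 called members per direction of each gene list with members that define it, and the 5 largest differences of effects in each direction, of which NNAT and EPS8 passed the adjusted p alone and are not described. Other list members, genes of adjacent pairs and stretches, and ZYX, S100P and LY6E among the differences of effects were named after their values were seen. The comparison and the lists were chosen with earlier results of these data known. Where a group was not well above background, a fold is a lower bound. The scripts were tested on simulated data. Precision is limited by 2 samples per group. The 4 samples compared pair only by slide, and deviations of same-slide samples from their group means correlated at 0.171. MM and WT samples shared arrays, as did PIM1 + MM and PIM1 + WT samples. The consensus correlation of channels of 1 array was 0.416. With the array as a random block the fit called 224 genes and 14 differences of effects. Genes at an unadjusted p below 0.05 (limma) for the difference of effects then went from 4075 to 6284. A few named genes are not reported here. Alternatives were other background correction, normalization, filters, probe summaries, blocks and samples left out.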

Additional observations from a re-analysis of the deposited data

Results flagged for a closer look

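The difference with stable PIM1 was not the same under both forms of NFATC1 for 13 genes by the test of the difference itself (limma, adjusted p below 0.05 and a log2 size of at least 1), 2 of them probes without a symbol. Since all multi-mutant samples carried Cy5 and all wild-type samples Cy3, form and dye cannot be told apart in each of these values. The signal of NFATC1 probe A_24_P258846, higher in all multi-mutant samples, cannot be told apart from the form either. The effect under the multi-mutant minus that under wild type was 1.39 for H3C15, 1.35 for HIRA and 1.22 for CCDC71. It was -1.44 for RAB11B, -1.15 for BSG, -1.12 for MINK1, -1.12 for NSMF, -1.12 for SCAF1, -1.07 for ZYX, -1.04 for H1-10 and -1.03 for GBA2. H1-10 fell by 0.63 under the multi-mutant and was higher by 0.41 under wild type, while for GBA2 the PIM1 + MM replicates stood apart, at 9.32 and 8.79.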

How the results depend on the processing

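The count of 226 genes became 4989 at the adjusted p alone, 104 with each channel centred on its median (47.1% of them higher, against 56.6%) and 829 with the processed signal (48.7% higher), and 224 to 366 with 1 sample left out, the highest without PIM1 + MM replicate 1. The other alternatives gave 171 (the 6 Cy5 channels) to 260 (the brightest probe of a gene). With spots in rows 1 to 33 left out of PIM1 + MM replicate 2 it was 219, of which 208 were among the 226. The replicate block, with the slide as the pair, gave 231, including all 226, and left the 13 differences of effects at 13. That count of 13 became 561 at the adjusted p alone, 25 at the unadjusted p with the size limit, 24 with loess, 76 with the processed signal and 0 with median centring, and 7 to 161 with 1 sample left out, the highest without PIM1 + MM replicate 1. The cause of these moves was not tested. Of the named genes that were called, 41 of 59 kept the call under every alternative, and none of the 8 called differences of effects among the 5 largest per direction did, since median centring removed them all. Values that changed sign were ACTB at -0.032 and NFATC1 at 0.66 with the brightest probe, H3C15 at -0.065 with median centring and NSMF at -0.037 to 0.25 with 1 sample left out, the lowest without PIM1 + MM replicate 1, none of them called. Where a group was left with 1 sample, that sample was assumed to vary like the others. Low signals limit what can be seen, since 58.5% to 66.5% of spots in the 4 channels were well above background.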
